A study of Mus musculus with 16 samples.

Results

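Brain transcripts of 9 genes that set how pyruvate and long-chain fatty acids enter mitochondrial oxidation were compared between aged male mice given adropin and mice given the diluent. The genes were taken by name, because they are known targets of adropin in peripheral tissues: the pyruvate dehydrogenase kinase genes Pdk1, Pdk2, Pdk3 and Pdk4, the phosphatase gene Pdp1, the enzyme subunit gene Pdha1, and the carnitine palmitoyltransferase genes Cpt1a, Cpt1c and Cpt2. All 9 were among the 40481 genes listed, and all 9 passed the filter on low values (more than 1 CPM, the counts scaled to a fixed library total, in at least 7 mice) that left 14949 genes for testing.

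The series held 16 poly-A RNA-seq libraries, 1 from the brain of each mouse. The 8 adropin mice received adropin(34-76), a synthetic fragment of the secreted peptide, at 90 nmol/kg/d by daily intraperitoneal injection for about 4 weeks. The 8 saline mice received the diluent, saline with bovine serum albumin. All were C57BL/6J males (C57BL in the labels), obtained at 18 months of age and chosen from groups of 15, all went through learning and memory tests while injections continued, and all were fasted for 6 h before the brain was frozen. The sampled part of the brain is not given beyond "brain". Each mouse is named here by the pair of numbers in its label, such as 5_4, whose meaning is not given.

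Pyruvate made by glycolysis is turned into acetyl-CoA by the pyruvate dehydrogenase (PDH) complex, whose E1 alpha subunit is encoded by Pdha1. Pyruvate dehydrogenase kinases phosphorylate that subunit and switch the complex off, whereas the phosphatase encoded by Pdp1 removes the phosphate and switches it on again. Long-chain fatty acids pass another gate, in which carnitine palmitoyltransferase 1 at the outer mitochondrial membrane couples the acyl group to carnitine and carnitine palmitoyltransferase 2 at the inner membrane returns it to coenzyme A. In muscle and liver, Pdk4 is known as a gene of fasting that responds to fatty acids and glucocorticoids. Cpt1c is the brain form of carnitine palmitoyltransferase 1, lies in the endoplasmic reticulum of neurons and has little catalytic activity.

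Total counts ran from 35026503 to 70314050 per mouse (median 41190462), and the groups overlapped. Markers of neurons, astrocytes, oligodendrocytes, microglia and endothelium were detected in every mouse. Saline mouse 8_3 stood apart. Its summed choroid plexus markers reached 2453 CPM against at most 323 CPM in any other saline mouse, and its summed cerebellar markers reached 155 CPM against at most 7.97 CPM. At an unadjusted edgeR p below 0.05, 3 of 3 tested choroid plexus markers, 1 of 1 cerebellar and 1 of 4 mural markers were lower with adropin, and 1 of 5 microglia markers was higher. Without mouse 8_3 these counts were 1, 0, 0 and 1. Of the other lists with tested markers (neuron, astrocyte, oligodendrocyte, endothelium, erythroid and skeletal muscle), 0 markers passed with or without that mouse. The separate-sample status of the mice rests on the labels, and within a group every pair of libraries differed by more than sampling noise (the smallest chi-square per degree of freedom over 56 pairs was 7.59).

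None of the 9 genes passed the test for a difference between adropin and saline in the brain. By the quasi-likelihood test of edgeR, 0 of 9 had an unadjusted p below 0.05, against 3.99% of all genes tested. The study's cut-off of a fold change above 1.5 with p below 0.05 was passed by 0 of 9, against 0.421% of all genes. After Benjamini-Hochberg adjustment no gene of the 14949 was called (0%), and the smallest adjusted p among the 9 was 0.874. Every 95% interval held 0 and lay inside the 1.5-fold limits, as did those of 90.4% of all genes tested, so the count of 9 is near the background. The widest bounds were a fold of 0.793 on the low side, for Cpt2, and of 1.24 on the high side, for Pdp1. In log2 fold change, 7 of the 9 lay above 0 and 2 below, where 49.2% of all genes lay above 0, and the 9 share libraries and are not independent. The median over the 9 was 0.06, and over all genes tested -0.0019.

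**Figure D1:**
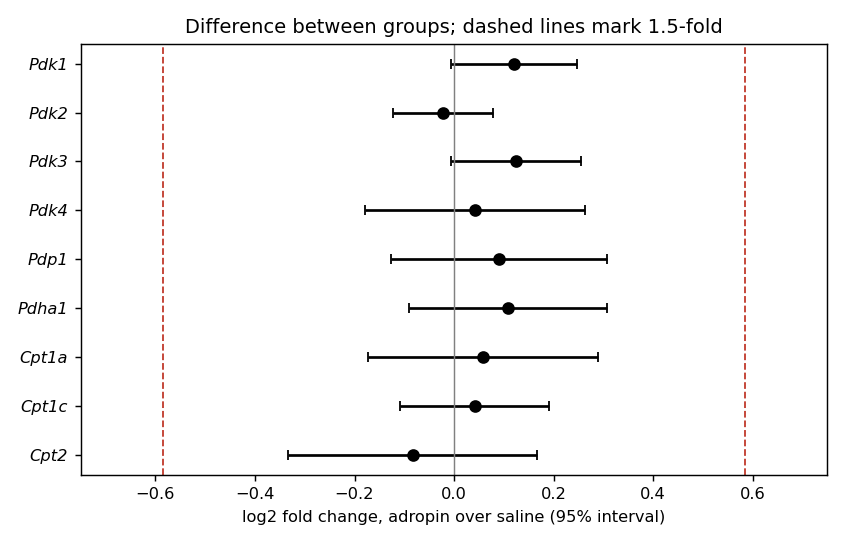
Log2 fold change of each gene in adropin over saline mice (x axis; n = 8 per group) with its 95% interval from the edgeR fit; the dashed lines mark a fold change of 1.5. All 9 intervals cross 0 and all lie between the dashed lines.

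The kinase genes come first. Values below are CPM scaled by TMM, a method that corrects library size for differences in composition. They are levels within 1 gene across mice, not per length. In bulk tissue, fewer cells of a type and less RNA per cell cannot be told apart, which holds for every level given here.

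Pdk2 (ENSMUSG00000038967, GRCm38 chr11:95026258-95041354, minus strand) was the most abundant kinase gene and the least variable of the 9. Adropin mice ranged from 149 to 168 CPM (median 159), and saline mice from 143 to 172 (median 160). All 8 adropin mice lay inside the saline range. The adropin mean was 158 ± 5.93 CPM and the saline mean 160 ± 10.5 CPM (mean ± SD of 8 mice, in this order for the genes that follow). The log2 fold change was -0.02 (95% interval -0.12 to 0.08; edgeR p = 0.654, exact permutation p = 0.617). An annotated antisense gene, Gm11513, lies over Pdk2 but shares none of its exon bases.

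Pdk1 (ENSMUSG00000006494, chr2:71873224-71903858, plus strand), whose transcript responds to low oxygen in many tissues, had the largest shift relative to its spread in the edgeR fit. Adropin mice ranged from 52.3 to 65.5 CPM (median 60.5) and saline mice from 47.5 to 61.0 (median 54.7). Of the 8 adropin mice, 7 lay above the saline median, while 5 lay inside the saline range. The means were 59.3 ± 4.51 and 54.6 ± 4.54 CPM, a log2 fold change of 0.12 (-0.01 to 0.25; edgeR p = 0.0611, adjusted p = 0.874, exact permutation p = 0.0567). The permutation tests were two-sided and run on log2 CPM. With the second label number as a replicate block Pdk1 passed the unadjusted threshold at a log2 fold change of 0.15, as it did at 0.13 in limma-voom with quality weights.

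Pdk3 (ENSMUSG00000035232, chrX:93764607-93832201, minus strand) had a similar log2 fold change. Its adropin range was 21.6 to 25.8 CPM (median 22.6) and its saline range 18.5 to 23.9 (median 20.4). All 8 adropin mice lay above the saline median, but 7 of them were inside the saline range. The means were 23.0 ± 1.31 and 21.1 ± 2.09 CPM, a log2 fold change of 0.12 (-0.01 to 0.26; edgeR p = 0.0624, exact permutation p = 0.0430). This p is not adjusted for the 9 genes tested. With scaling to library size alone the exact permutation p was 0.0766, and with DESeq2 size factors 0.0401. With the first label number as a replicate block the log2 fold change of Pdk3 was 0.04, against 0.17 for Pdk1. Only 3 first numbers occurred in both groups, in 8 mice, so that fit took the group difference from those mice alone.

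Pdk4 (ENSMUSG00000019577, chr6:5483351-5496309, minus strand), the fasting-responsive kinase gene, was the scarcest of the 4. Adropin mice ranged from 6.32 to 9.11 CPM (median 8.19) and saline mice from 5.12 to 8.78 (median 8.10). The groups overlapped, with 6 of 8 adropin mice inside the saline range, and the lowest value belonged to saline mouse 5_4. The means were 7.92 ± 1.01 and 7.70 ± 1.17 CPM, a log2 fold change of 0.04 (-0.18 to 0.26; edgeR p = 0.699, exact permutation p = 0.692). Without mouse 5_4 the log2 fold change was -0.02, so the sign of this small difference rested on that library.

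The 2 genes on the other side of the switch, the kinase substrate and the phosphatase, varied more between mice than the kinase genes Pdk1, Pdk2 and Pdk3. Pdha1 (ENSMUSG00000031299, chrX:160122209-160138413, minus strand) ranged from 113 to 164 CPM with adropin (median 146) and from 99.0 to 153 with saline (median 136). The ranges overlapped, with 6 of 8 adropin mice inside the saline range. The means were 140 ± 17.6 and 130 ± 19.0 CPM, a log2 fold change of 0.11 (-0.09 to 0.31; edgeR p = 0.266, exact permutation p = 0.288). Without mouse 5_4 it was 0.06. Of its exon bases, 603 (16.1%) overlap Map3k15 on the opposite strand, whose own counts were 17 to 54 per mouse against 3418 to 10402 for Pdha1.

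Pdp1 (ENSMUSG00000049225, chr4:11958184-11966452, minus strand) ranged from 75.1 to 133 CPM with adropin (median 99.3) and from 76.2 to 109 with saline (median 89.9). The highest value, in adropin mouse 1_3, also came from the most deeply sequenced library. The means were 99.1 ± 18.1 and 93.1 ± 11.5 CPM, a log2 fold change of 0.09 (-0.13 to 0.31; edgeR p = 0.393, exact permutation p = 0.493). Without mouse 1_3 the log2 fold change was 0.02.

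Among the carnitine palmitoyltransferase genes, Cpt1a (ENSMUSG00000024900, chr19:3322334-3385733, plus strand), the liver form that most cells use, ranged from 16.8 to 27.1 CPM with adropin (median 23.9) and from 16.01 to 25.7 with saline (median 22.1). Adropin mice 3_3 and 4_3 and saline mouse 5_4 were low, at 16.8, 17.1 and 16.01 CPM, and the next lowest mouse was at 20.5. The means were 22.9 ± 3.996 and 22.0 ± 3.06 CPM, a log2 fold change of 0.06 (-0.17 to 0.29; edgeR p = 0.607, exact permutation p = 0.689). It was 0.0031 without mouse 5_4 and 0.11 without 3_3.

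Cpt1c (ENSMUSG00000007783, chr7:44959372-44974851, minus strand) ranged from 116 to 147 CPM with adropin (median 129) and from 104 to 145 with saline (median 124). All but 1 adropin mouse lay inside the saline range. The means were 128 ± 11.1 and 125 ± 13.7 CPM, a log2 fold change of 0.04 (-0.11 to 0.19; edgeR p = 0.567, exact permutation p = 0.540). Without mouse 8_3 it was 0.0085. An antisense gene overlaps 366 of its exon bases (6.53%), and whether counting used strand is not stated.

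Cpt2 (ENSMUSG00000028607, chr4:107903981-107923610, minus strand) was the scarcest of the 9, with 127 to 300 counts per mouse. It ranged from 3.002 to 5.10 CPM with adropin (median 4.53) and from 3.82 to 5.94 with saline (median 4.49). The means were 4.40 ± 0.612 and 4.66 ± 0.837 CPM, a log2 fold change of -0.08 (-0.33 to 0.17; edgeR p = 0.493, exact permutation p = 0.542). This was the widest interval of the 9. The log2 fold change was -0.02 without mouse 3_3 and -0.03 without 5_3 or 8_3.

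**Figure D2:**
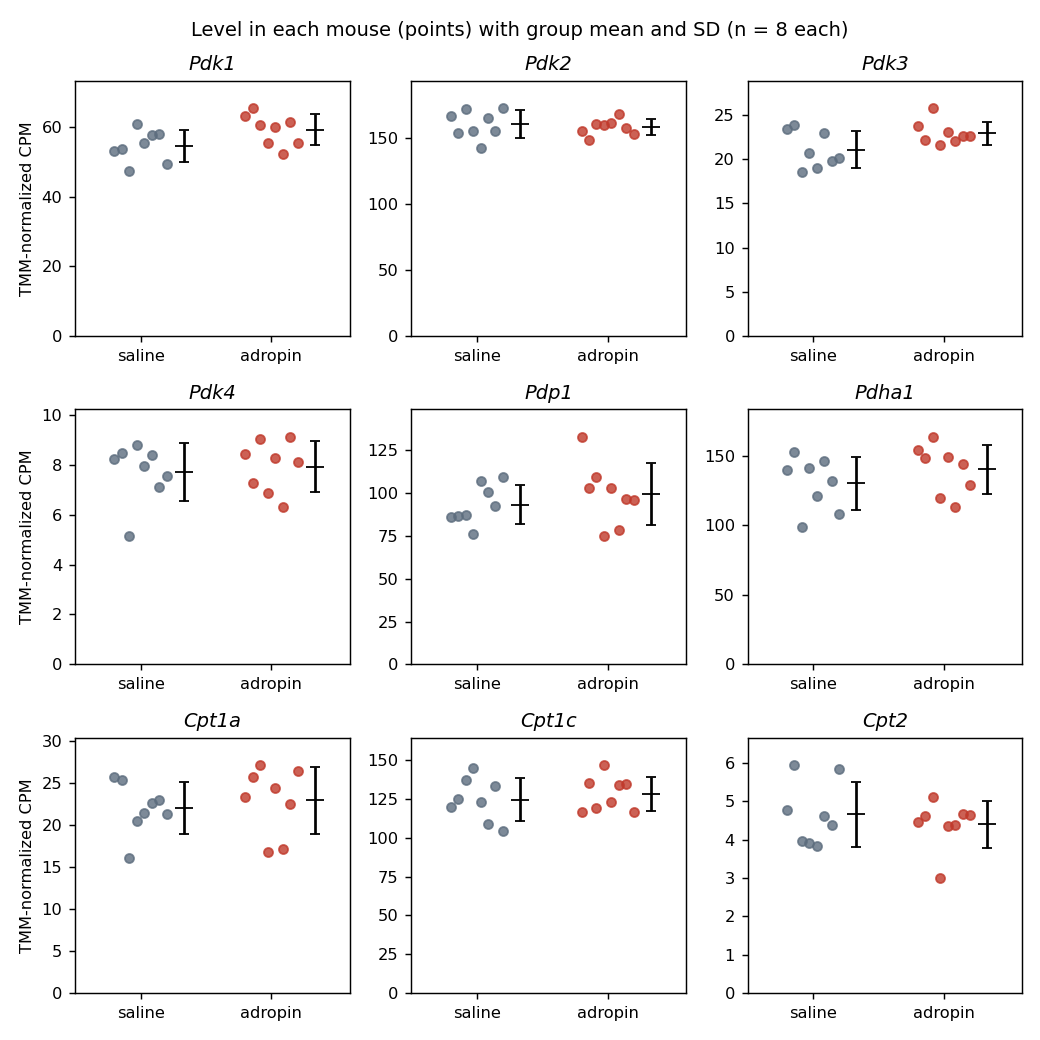
TMM-normalized CPM of each gene (y axes, from 0) in the saline and adropin mice (x axes; 1 point per mouse, n = 8 per group), with the group mean and SD as a bar beside the points. The groups overlap for every gene, and the low Pdk4 point at 5.12 CPM is saline mouse 5_4.

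To compare levels between genes, TMM CPM was divided by the length of the merged exons in kb. By this per-length level Pdk2 led in all 16 mice, with a median of 50.3 CPM per kb, followed by Pdha1 at 37.6. The ranges of Pdk2 and Pdha1 did not overlap. Cpt1c at 22.2 and Pdp1 at 21.3 came next and could not be ordered, since Cpt1c was the higher of the pair in 9 of 16 mice. Pdk3 at 8.74 stood above Pdk1 at 7.28 in all 16 mice although their ranges over mice overlapped. This order rests on merged exon lengths of 2561 bases for Pdk3 and 7779 for Pdk1, since in CPM Pdk1 was the higher (median 56.7 against 22.4). The same lengths divide every mouse, so agreement over mice does not test them, and merged exons can be longer than any 1 transcript. Cpt1a at 2.99, Pdk4 at 2.33 and Cpt2 at 1.89 were the lowest. Cpt1a exceeded Pdk4 in 16 of 16 mice and Pdk4 exceeded Cpt2 in 12 of 16, with overlapping ranges in both cases.

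**Figure D3:**
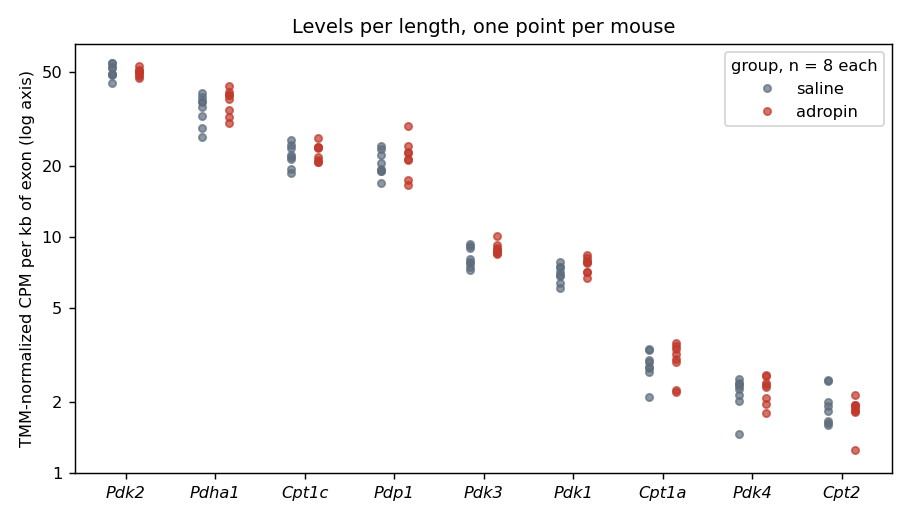
TMM-normalized CPM per kb of merged exon (y axis, log scale) for each gene in order of its median (x axis), 1 point per mouse, with 8 saline and 8 adropin mice side by side. Pdk2 and Pdha1 are the highest, Cpt1c and Pdp1 overlap, and Cpt2 is the lowest.

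Summed per length, Pdk2 made up 71.1 to 78.6% of the kinase transcripts of the 4 genes in any mouse, Pdk3 10.4 to 14.1%, Pdk1 8.81 to 12.7% and Pdk4 2.11 to 3.75%. The shares and ratios given here rest on the same merged exon lengths. The Pdk2 share had a median of 72.3% with adropin and 73.8% with saline, and the ranges overlapped. Of the transcripts of Cpt1a and Cpt1c together, Cpt1a supplied 7.73 to 14.3%, with a median of 12.5% with adropin and 12.1% with saline. The kinase sum divided by Pdha1, both per length, had a median of 1.77 with adropin and 1.88 with saline. Divided by Pdp1 it was 3.10 and 3.37. These ratios overlapped between groups and were given no test. The muscle form Cpt1b was too low to test, with 0 to 16 counts per mouse.

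The differences between mice inside each group were shared among some of the genes. With the group means subtracted, Pearson's r over the 16 mice was computed for all 36 pairs on log2 CPM, with p-values from 100000 permutations within groups and Benjamini-Hochberg adjustment over the 36. By this test 11 pairs had an adjusted p below 0.05, 9 positive and 2 negative, and by Spearman's rho 4 of the 11 did. All 11 had the same sign within the adropin mice as within the saline mice. Pdha1, Pdk3, Pdk4 and Cpt1a formed a group in which every pair was among the 11 by Pearson's r. By Spearman's rho the group did not hold whole, since Pdk4 and Cpt1a had r = 0.73 but rho = 0.44 (permutation p = 0.00433 and 0.104, adjusted 0.0195 and 0.250).

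Of these, Pdk4 and Pdha1 had r = 0.81 (rho = 0.79; permutation p = 0.00056 and 0.00065, adjusted 0.0054 and 0.0101). Pdk3 and Pdha1 had r = 0.79 (rho = 0.85; permutation p = 0.00072 and 0.00015, adjusted 0.0054 and 0.0054). Pdha1 and Cpt1a had r = 0.78 (rho = 0.63; permutation p = 0.00067 and 0.0121, adjusted 0.0054 and 0.0637). Outside that group, Pdk1 and Pdha1 had r = 0.80 (rho = 0.64; permutation p = 0.00044 and 0.0124, adjusted 0.0054 and 0.0637). The negative pairs both held Cpt1c. Pdp1 and Cpt1c had r = -0.73 (rho = -0.66; permutation p = 0.00075 and 0.00873, adjusted 0.0054 and 0.0629), and Cpt1c and Cpt2 had r = -0.63 (rho = -0.53; permutation p = 0.0125 and 0.0468, adjusted 0.0407 and 0.140). Pdk2 was in none of the 11 pairs.

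The relations were recomputed with mice left out, which narrows the spread of a gene and lowers n, so that a lost call does not by itself show a weaker relation. Leaving out the 2 mice farthest from the median of the first gene of a pair, r was 0.61 for Pdk4 and Pdha1, 0.71 for Pdk3 and Pdha1, 0.59 for Pdha1 and Cpt1a, 0.65 for Pdk1 and Pdha1 and -0.67 for Pdp1 and Cpt1c, and 0 of the 36 pairs kept an adjusted p below 0.05. For Pdk4 and Cpt1a r went from 0.73 to 0.41, and for Pdk1 and Pdk4 from 0.64 to 0.27. The 3 mice low in Cpt1a (3_3, 4_3 and 5_4) were also left out, a choice made after seeing the data, and 0 pairs passed. Pdk4 and Cpt1a then had r = -0.10, Pdk1 and Pdk4 0.07, Pdha1 and Cpt1a 0.37 and Pdk4 and Pdha1 0.47, whereas Pdk3 and Pdha1 had r = 0.74. Mice 4_3 and 5_4 had the smallest total counts, 35185051 and 35026503, while mouse 3_3 had 41953707, above the median of 41190462. Mouse 7_4, with 35857014, was not low in Cpt1a, at 26.4 CPM. Without mouse 8_3, 11 pairs passed, not counting Cpt1c and Cpt2 (r = -0.54, adjusted permutation p = 0.0969).

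**Figure D4:**
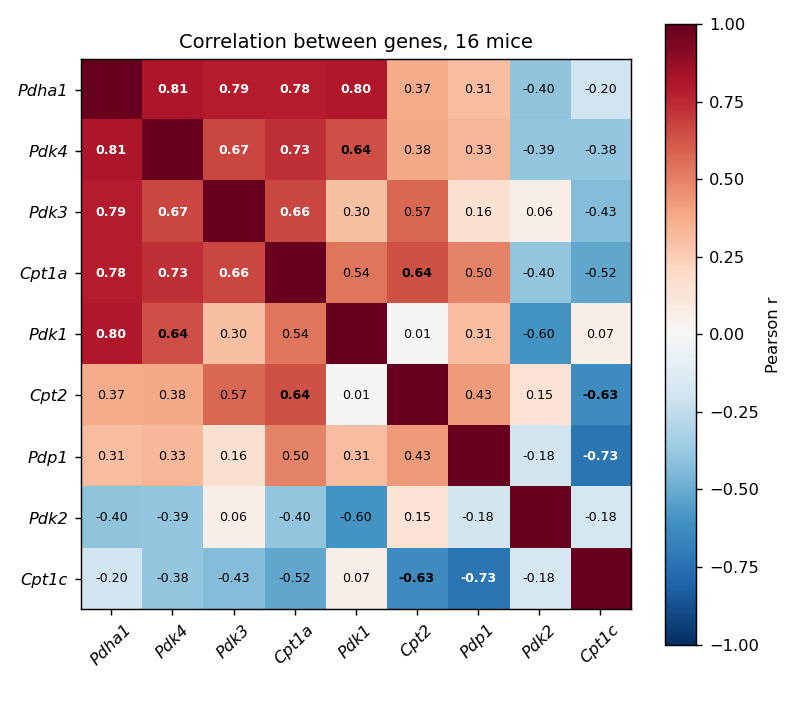
Pearson's r between each pair of genes over 16 mice on log2 CPM with the group means subtracted (color scale from -1 to 1), with the 11 pairs of adjusted p below 0.05 in bold. Pdha1, Pdk4, Pdk3 and Cpt1a form a block of positive values of 0.66 to 0.81, and the bold negative values lie in the Cpt1c row and column.

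The promoters of Pdk4, Pdha1, Pdk3 and Cpt1a are shown because every pair of their transcripts was called by Pearson's r. Of the 9 genes, 8 matched a RefSeq promoter (GRCm38.p6) by symbol and Pdp1 did not. Each stretch below is the part of the 250 bases before the RefSeq start that lies outside any exon, read 5′ to 3′ on the strand of the gene: Pdk4, chr6:5496310-5496528, minus; Pdha1, chrX:160138431-160138680, minus; Pdk3, chrX:93832202-93832400, minus; Cpt1a, chr19:3323051-3323284, plus. The Cpt1a stretch lies inside the gene span given above, in an intron of a transcript that starts farther upstream. Capitals mark matches, on either strand, to the GC box GGGCGG, the CCAAT box CCAAT, the nuclear receptor half-site AGGTCA, the AP-1 site TGANTCA, the forkhead site GTAAACA or the TATA box TATAAA.
Pdk4: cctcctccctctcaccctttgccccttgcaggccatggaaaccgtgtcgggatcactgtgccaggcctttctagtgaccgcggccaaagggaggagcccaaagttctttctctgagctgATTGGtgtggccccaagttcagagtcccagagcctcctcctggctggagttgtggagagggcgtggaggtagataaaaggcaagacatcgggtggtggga
Pdha1: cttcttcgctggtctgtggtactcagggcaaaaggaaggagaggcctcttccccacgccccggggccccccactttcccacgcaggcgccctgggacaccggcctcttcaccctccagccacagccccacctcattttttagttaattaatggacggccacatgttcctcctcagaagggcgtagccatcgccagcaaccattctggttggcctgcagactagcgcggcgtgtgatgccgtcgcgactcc
Pdk3: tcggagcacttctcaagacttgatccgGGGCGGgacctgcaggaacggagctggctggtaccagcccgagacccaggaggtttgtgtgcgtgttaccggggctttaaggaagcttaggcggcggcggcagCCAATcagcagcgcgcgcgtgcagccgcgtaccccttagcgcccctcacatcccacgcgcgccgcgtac
Cpt1a: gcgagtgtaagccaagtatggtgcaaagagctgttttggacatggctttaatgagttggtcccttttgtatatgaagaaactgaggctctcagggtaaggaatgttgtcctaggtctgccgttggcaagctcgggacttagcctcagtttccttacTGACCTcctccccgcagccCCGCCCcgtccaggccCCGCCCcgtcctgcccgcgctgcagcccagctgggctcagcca

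The Pdk4 stretch held 1 CCAAT box, in reverse, and Pdk3 held 1 GC box and 1 CCAAT box. Cpt1a held 2 GC boxes and 1 nuclear receptor half-site, all in reverse, and Pdha1 held none of the letters searched. No motif was common to all 4. In all 32851 mouse promoters of the same window, the GC box was found in 32.7%, the CCAAT box in 33.8%, the half-site in 14%, the AP-1 site in 6.75%, the forkhead site in 3.17% and the TATA box in 12.4%. The matches are letters only and overlap no other motif searched.

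The genes were next set against summed markers of 11 cell types or tissues, the total count and the share of counts taken by the RNA gene Gm42418, in 117 relations of the same kind, adjusted together. An adjusted permutation p below 0.05 was found for 11 by Pearson's r and for 8 of those by Spearman's rho. Pdk4 followed the astrocyte markers most closely (r = 0.88, rho = 0.81; permutation p = 1e-05, the smallest the permutations can give, and 0.00053; adjusted 0.00117 and 0.0155), with r = 0.80 without mice 4_3 and 5_4. Astrocyte markers also went with Pdha1 (r = 0.73), Pdk3 (0.72) and Cpt1a (0.72), at adjusted permutation p-values of 0.0304, 0.0395 and 0.0284. By rho (0.66, 0.76 and 0.63) the adjusted permutation p-values were 0.0778, 0.0326 and 0.0955, so that by rho only Pdk3 of these passed. Microglia markers passed by rho and not by r for Pdk4 (rho = 0.74, r = 0.57, adjusted permutation p = 0.0322 and 0.136) and Pdha1 (rho = 0.72, r = 0.68, adjusted permutation p = 0.0425 and 0.0596), as did cerebellar markers for Pdp1 (rho = 0.59, r = 0.41, adjusted permutation p = 0.0155 and 0.0895). Without mice 4_3 and 5_4 the astrocyte r was 0.51 for Pdha1, 0.66 for Pdk3 and 0.47 for Cpt1a. The summed astrocyte markers ranged from 697 to 956 CPM with adropin and from 649 to 937 with saline, and 0 of the 5 differed between groups at an unadjusted p below 0.05 in edgeR.

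Pdp1 followed the neuron markers (r = 0.86, rho = 0.76; permutation p = 0.00011 and 0.00124; adjusted 0.00429 and 0.0290), with r = 0.77 without mice 1_3 and 6_1. Cpt1c went against them (r = -0.79, rho = -0.82; permutation p = 5e-05 and 0.00011; adjusted 0.00293 and 0.0129) and against the mural cell markers (r = -0.81). Cpt1a (r = 0.79) and Cpt2 (r = 0.75) went with the mural markers, and without mice 3_3 and 5_4 the values were 0.56 and 0.65. The summed mural markers ranged from 108 to 143 CPM with adropin and from 111 to 163 with saline. The remaining relations were Cpt1c with cerebellar markers (r = -0.58, rho = -0.58, adjusted permutation p = 0.0239 and 0.0425) and Pdk1 with skeletal muscle markers (r = -0.66, rho = -0.64, adjusted permutation p = 0.0418 and 0.0778), the latter lost by rho. The skeletal muscle sum was mostly Acta1 (median 15.2 CPM), and the sarcomere gene Myh4 had a median of 1.15 CPM. The part of cell make-up in these relations was not tested, and no relation with the total count or with Gm42418 was among the 11.

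The genes whose log2 CPM was most like each of the 9 over the 16 mice were ranked by Pearson's r among all tested genes, as a description. Pdha1 was closest to Usp9x (r = 0.99), Klhl11 (0.99) and Dnajc6 (0.98), and 1851 genes exceeded r = 0.8 with it. Cpt1a was closest to Ahcyl1 (0.96), Vezf1 (0.94) and Kctd3 (0.94), and Pdk4 to Itpripl2 (0.97), Slc41a1 (0.95) and Manba (0.94). Both patterns were also widely shared, with 729 and 593 genes above 0.8.

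Pdk1 was closest to the autophagy kinase gene Ulk1 (0.91), to Gpr137b-ps (0.90), a pseudogene whose reads may be shared with its parent gene, and to Shank2 (0.89). Pdk3 was closest to Acaca (0.90), which encodes the enzyme that makes malonyl-CoA, the inhibitor of carnitine palmitoyltransferase 1, and then to S1pr3 (0.89) and Glod4 (0.89). Pdk2 was closest to Eif2b1 (0.88), Set (0.87) and Dnajb14 (0.86), with 34 genes above 0.8. Among the genes most like Pdp1 were Boc (0.88) and the GABA receptor gene Gabrd (0.88). Cpt1c was closest to Rab36 (0.89), A630023P12Rik (0.89) and the brain proline transporter gene Slc6a7 (0.88), and Cpt2 to B3galt5 (0.84), Cdc42ep4 (0.81) and Fat1 (0.80), with 5 genes above 0.8.

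The rest of the pathway was read from 7 lists of 72 other genes, of which 70 passed the filter. At an unadjusted edgeR p below 0.05, 2 were higher and 0 lower with adropin, 2.86% against 3.99% of all genes, none passed the 1.5-fold cut-off, and the smallest adjusted p was 0.874. The 95% intervals of 67 of the 70 lay inside the 1.5-fold limits, near the 90.4% of all genes tested.

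Slc16a7, which encodes the monocarboxylate transporter MCT2 that brings lactate, pyruvate and ketone bodies into neurons, ranged from 8.36 to 14.3 CPM with adropin (median 11.3) and from 7.18 to 11.4 with saline (median 9.38). The log2 fold change was 0.28 (0.02 to 0.53; edgeR p = 0.0349, adjusted p = 0.874), and the exact permutation test gave p = 0.0631. Prkaa2, a catalytic subunit gene of AMP-activated protein kinase, ranged from 33.8 to 54.9 CPM (median 44.3) and from 27.9 to 46.8 (median 38.7). Its log2 fold change was 0.23 (0.02 to 0.44; edgeR p = 0.0354, adjusted p = 0.874; exact permutation p = 0.0535). For both genes the groups overlapped. The edgeR p of both was above the threshold without any 1 of mice 1_3, 2_4, 5_4 and 8_3, that of Slc16a7 also without 2_3, 5_5, 6_2 or 7_4, and that of Prkaa2 also without 2_1. With the label numbers as replicate block Slc16a7 had an edgeR p of 0.0651 (first number) and 0.162 (second), and Prkaa2 0.230 with the first. Prkaa2 also missed the threshold with library size alone in edgeR and with limma-trend.

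Of the 6 other genes of the PDH complex and its phosphatases, 0 had p below 0.05 and 5 lay above 0 in log2 fold change. Pdhb, the E1 beta subunit and the highest per length, had a log2 fold change of -0.08 (edgeR p = 0.266, exact permutation p = 0.287), and Pdpr, the phosphatase regulatory subunit, 0.27 (edgeR p = 0.144, exact permutation p = 0.199). In the pyruvate and lactate list, 1 of 9 passed, namely Slc16a7. Ldhb, the highest per length, was at 0.01 (edgeR p = 0.933, exact permutation p = 0.870), and Pcx, which turns pyruvate into oxaloacetate, at 0.12 (edgeR p = 0.171, exact permutation p = 0.194).

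In the carnitine shuttle list 7 of 8 genes were tested, 0 passed and 3 lay above 0. Slc25a20, the inner membrane carrier of acylcarnitines, had a log2 fold change of -0.15 (edgeR p = 0.0923, exact permutation p = 0.0821), Acaca 0.13 (edgeR p = 0.121, exact permutation p = 0.132) and Crat, carnitine acetyltransferase, -0.03 (edgeR p = 0.596, exact permutation p = 0.513). In the fatty acid oxidation list 0 of 20 passed and 7 lay above 0. The acyl-CoA synthetase gene Acsl1 was at 0.14 (edgeR p = 0.0718, exact permutation p = 0.0824) and its relative Acsl3, the highest per length, at 0.05 (edgeR p = 0.567, exact permutation p = 0.605), while the thiolase gene Acaa2 was at -0.14 (edgeR p = 0.0935, exact permutation p = 0.115) and at -0.08 without mouse 8_3.

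Of the 5 ketone body genes 0 passed. Oxct1, which lets neurons use ketone bodies and was the highest per length, was at 0.06 (edgeR p = 0.232, exact permutation p = 0.140). Among 16 regulators only Prkaa2 passed. The glucocorticoid receptor gene Nr3c1 was at 0.16 (edgeR p = 0.0868, exact permutation p = 0.139), and Esrra, the highest per length, at -0.05 (edgeR p = 0.478, exact permutation p = 0.532). In the list of genes that respond to fatty acids in peripheral tissues, 7 of 8 were tested and 0 passed. Ucp2 was at -0.22 (edgeR p = 0.153, exact permutation p = 0.298) and at -0.07 without mouse 8_3. Acot2 was at -0.12 (edgeR p = 0.230, exact permutation p = 0.225), and the fatty acid transporter gene Cd36 was too low to test, with 6 to 97 counts per mouse.

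Single mice moved several of these log2 fold changes by over 1.5 times. Without mouse 5_4 Pdhb was at -0.04, Pdpr at 0.17, Pcx at 0.08, Acsl3 at 0.0069 and Acot2 at -0.07. Without mouse 8_3 Esrra was at -0.0042, and without mouse 1_3 Crat was at -0.0024. An unadjusted edgeR p fell below 0.05 for Pdpr without 4_3 (0.35), for Acaca and Acaa2 without 5_3 (0.18 and -0.17), for Acsl1 without 3_3, 4_3 or 7_1 (0.16, 0.18 and 0.17) and for Nr3c1 without 3_3 or 4_3 (0.19 and 0.21), where the values in parentheses are log2 fold changes.

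**Figure D5:**
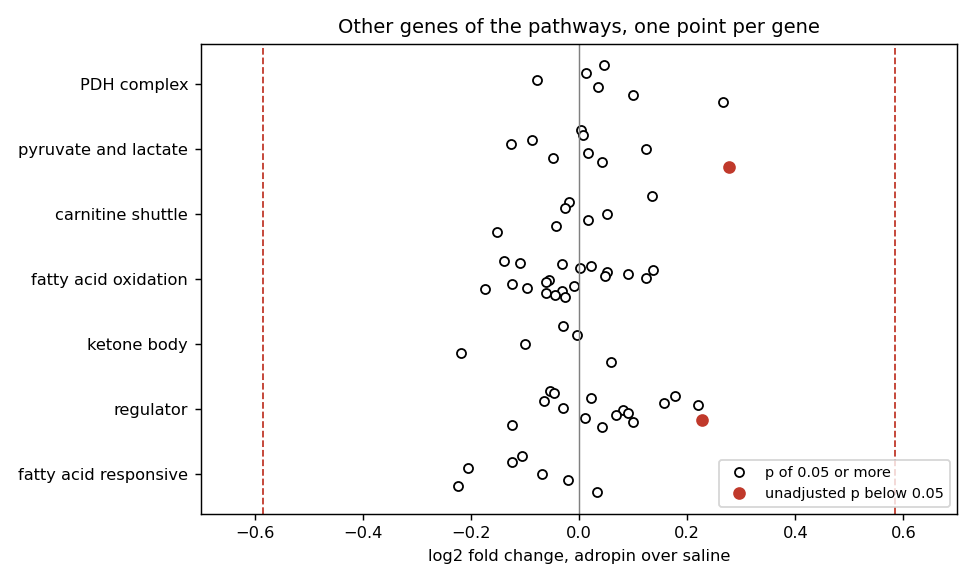
Log2 fold change in adropin over saline mice (x axis; n = 8 per group) of the 70 tested genes of 7 pathway lists (rows), 1 point per gene; filled points have an unadjusted edgeR p below 0.05 and dashed lines mark a fold change of 1.5. The 2 filled points are Slc16a7 and Prkaa2, and no point reaches a dashed line.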

How the data were processed

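Brain poly-A RNA of 16 mice (8 per group) was sequenced in paired reads of 150 bases. STAR was used by the authors to align the reads to the GRCm38 primary assembly of Ensembl release 76 and counted uniquely aligned, unambiguous reads per gene with featureCounts. The deposited counts are raw whole numbers, and the deposited CPM values, which the authors made from them, served for the filter. Here the genes kept exceeded 1 CPM in 7 or more mice, and 355 ribosomal RNA genes were left out. Counts were scaled by TMM and tested with edgeR 4.0.16 (quasi-likelihood, R 4.3.3), with limma 3.58.1 and DESeq2 1.42.0 as alternatives. The study's limma test, which also began from counts and TMM factors, was replaced by choice. The test was first tried on made-up counts with known changes. The p-values set a group difference or a correlation against the spread between mice. Exact permutation tests took all 12870 divisions of 8 against 8 (smallest p possible 0.000155). Exon lengths came from GENCODE models of GRCm38. Genes and lists were chosen with earlier results of these data known. Named are the 9 genes, and from each list every gene with p below 0.05, those with the 2 smallest p and the highest per length, and the 3 genes most like each of the 9. A few genes that this rule names are not reported here.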

Additional observations from a re-analysis of the deposited data

Results flagged for a closer look

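In 100 groups of 8 mice (genes named above, marker sums and shares), the highest or lowest mouse was set against the others by its gap to the nearest mouse over the whole range (Dixon's test at 95%). The gap was beyond the critical value in 10, where chance gives about 5 if the values are normal. The groups are not independent, since the Pdk4 level, its share and the ratio of Pdk2 to Pdk4 repeat the same low value. The 10 therefore cannot be read as an excess over 5. Saline mouse 5_4 was the lowest saline mouse in Pdk4, at 5.12 CPM against 7.08 for the next. The same mouse had the lowest Pdk4 share of the kinase transcripts, 2.11%, and the highest ratio of Pdk2 to Pdk4, 37.3. Adropin mouse 3_3 was the lowest adropin mouse in Cpt2, at 3.002 CPM against 4.35.

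Among the other genes, Acaa2 was highest among the adropin mice in 4_3 (17.9 CPM) and Ucp2 among the saline mice in 8_3 (50.5 CPM). Mouse 8_3 also had the highest choroid plexus marker sum of the saline mice (2453 CPM) and the highest cerebellar sum (155 CPM). The oligodendrocyte sum was highest among adropin mice in 7_4 (7785 CPM), and the adipocyte sum among saline mice in 6_1, at 0.324 CPM, close to 0.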

How the results depend on the processing

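For the 9 genes, 232 of 243 refits kept the direction and the side of the threshold, 10 brought an unadjusted p below it and 1 reversed, Pdk4. No refit brought a gene past the 1.5-fold cut-off. With limma-voom and quality weights Pdk1 passed (log2 fold change 0.128), giving 1 of 9, and 7 list genes and 1299 of all genes passed. With the second label number as replicate block Pdk1 passed (0.146), giving 1 of 9 and 1 list gene. The count over all genes for that fit is not given here, so 1 of 9 has no share beside it. Over the refits on all mice that count ran from 327 to 1902. With the first number as replicate block 0 list genes and 327 of all genes passed, and Pdk3 was at 0.0396 and Pdk1 at 0.175. The second number had 3 values in both groups, held by 14 mice, and the first 3, held by 8. Other mice add nothing to the group difference of these fits. Adropin and saline mice that shared a number did not deviate together. Their r ran from -0.272 to 0.217 over 5 pairs for the first number and from -0.561 to 0.299 over 17 pairs for the second. The numbers were therefore not taken to pair mice across the groups. Mice of the same group that shared a number were not compared. With library size alone, or with limma-trend on log2(CPM + 1) or log2(CPM + 0.1), 1 list gene passed. Without a filter 1902 of 30210 genes passed. The exact permutation p of Pdk3 was 0.0766 with library size alone. The cause of these changes was not tested.

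Leaving out each mouse gave log2 fold changes of 0.0944 to 0.145 for Pdk1, 0.0988 to 0.152 for Pdk3, -0.0444 to -0.0063 for Pdk2, -0.0245 (without 5_4) to 0.0819 for Pdk4, 0.0188 to 0.140 for Pdp1, 0.0598 to 0.147 for Pdha1, 0.0031 to 0.112 for Cpt1a, 0.0085 to 0.0755 for Cpt1c and -0.120 to -0.0198 for Cpt2. It gave 0 to 1 of the 9 genes with an unadjusted p below 0.05 (Pdk1 without 3_3, 4_3, 6_1, 7_4 or 8_1, Pdk3 without 2_3, 5_3 or 7_1), 0 to 6 list genes (6 without 4_3) and 389 to 1433 of all genes (389 without 2_4, 1433 without 4_3). Ldhb, near 0 in the report, changed sign with DESeq2 (-0.000523), library size alone (-0.0148), limma-trend (-0.00731 with either pseudocount), the first (-0.00347) and the second (-0.00932) replicate block, and ran from -0.0429 to 0.0517 over single mice left out. With the first replicate block Crat was at 0.0358, Oxct1 at -0.0278 and Esrra at 0.00996. Of the 11 pairs of genes, 0 passed without the 2 mice farthest from the median and 0 without mice 3_3, 4_3 and 5_4, where Pdk4 and Cpt1a had r = -0.098. Depth limits Cpt2 and Pdk4 most, with at least 127 and 177 counts per mouse.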
